A study of Mus musculus with 24 samples.

Results

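Heat shock proteins and their J-domain partners were followed in tibialis anterior muscle of mice with a conditional knockout of the histone chaperone gene Hira in muscle fibres. The genes were chosen by name: each array row whose annotated symbol begins with Hspa, Hspb, Hspd, Hspe, Hsph, Hsp90, Dnaja, Dnajb or Dnajc was taken, in any letter case. This gave 89 of 26423 rows and 71 of the 17742 genes that were measured. The name rule also takes in Hspb11, an intraflagellar transport gene, and Hspbp1 and Hspbap1, which are named for the chaperones they bind. Under these names no row was found for Hspa8, Hspd1 or Hsp90aa1, which are not analysed here.

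There were 4 knockout animals (Myf6 cre/+; Hira flox/-) and 4 control animals (Myf6 cre/+; Hira flox/+), all 6 months old and of mixed C57BL6/J and 129S1/SvImJ strain, and RNA of each was hybridised 3 times. Cre was driven from the Myf6 locus, which is active in muscle fibres, and both groups carried it. Control fibres therefore kept an intact Hira allele beside the floxed one, and the null allele of the knockout was present in every cell of the animal. Values are probe intensities scaled by the authors, given here as the geometric mean of the 3 hybridisations of an animal, and are compared within a gene only. Where 4 values of a group are listed, they stand in the order of animals 1 to 4. A gene passed the test at an adjusted p under 0.05 (limma on the 8 animal means, Benjamini-Hochberg over all genes). All fold changes are knockout over control, and they are given on the log2 scale with the standard error (SE) of the fit.

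HSP70 proteins hold unfolded stretches of other proteins in a cycle driven by ATP. J-domain proteins of the DNAJA, DNAJB and DNAJC classes deliver clients and start the hydrolysis of ATP, and HSP110 proteins exchange the nucleotide so that the client is released. HSP90 acts later on near-native clients, small heat shock proteins hold unfolding proteins without ATP, and the HSP60 and HSP10 chaperonin folds proteins inside mitochondria. In striated muscle, small heat shock proteins and J proteins of the Z disc protect sarcomere proteins under mechanical load. Heat shock factor 1 switches on the inducible members, and the unfolded protein response of the endoplasmic reticulum (ER) switches on those of the ER lumen.

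Log2 intensities correlated at 0.985 to 0.995 between hybridisations of an animal. The range was 0.976 to 0.993 between animals of 1 group and 0.967 to 0.987 between animals of different groups. Fast fibre genes were bright, as the tissue label asks: the summed intensity of 6 such genes was 1538152 to 2202917 in knockout animals and 1787697 to 2388894 in control animals. Intensity at Hira itself was 397, 633, 368 and 454 in knockout animals, against 462, 554, 485 and 509 in control animals. Knockout animal 2 lay above all control animals and the other 3 below them, and Hira did not pass (log2 fold change -0.15 ± 0.17, SE; adjusted p = 0.623; exact two-sided permutation p = 0.457, where 0.0286 is the smallest possible). It is unknown whether its probe lies in the deleted part, and the genotypes therefore rest on the labels. Control animals 2 and 3 stood apart in a list of handling and stress-responsive genes, which was chosen with earlier results of these data known. Arrdc2, for example, had 1527, 1120.1, 1487 and 2608 in knockout animals, against 3693, 22036, 18549 and 4382 in control animals. Of markers of other cells, 1 of 9 smooth muscle genes was higher and 3 lower, and 2 of 6 adipocyte genes were lower. Lower calls also numbered 2 of 6 Schwann cell genes, 1 of 5 satellite cell genes (Calcr), 1 of 3 blood genes (Alas2) and 1 of 9 macrophage genes (Cd163), while 0 of 8 fibroblast genes passed (limma; 2 had an unadjusted p under 0.05). Macrophage genes as a list went mostly the other way, with 7 of 9 above 0 and a median of 0.43. In the blood list Ptprc lay above 0 without overlap and did not pass (log2 fold change 0.52 ± 0.21, SE; adjusted p = 0.157). The part of these markers in the results was not tested.

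Of the 71 chaperone genes 7 passed the test, 2 higher and 5 lower in knockout muscle. Over all 17742 genes 9.28% passed, 4.28% higher and 5.01% lower. The share of chaperone genes, 9.86%, lay near the background at this threshold. At an unadjusted p under 0.05 the shares were further apart, 36.6% of chaperone genes and 24% of all genes (limma). The 4 knockout and 4 control animals did not overlap in 20 chaperone genes (28.2%, against 17.5% of all genes). Of these 7 were higher (9.86%, against 7.24% of all genes) and 13 lower (18.3%, against 10.2% of all genes). Dim genes were rarer among the chaperones. Only 3 of the 71 (Dnajb7, Dnajc5b and Hspbap1) lay in both groups under an intensity of 125, the highest 5th percentile of any array (4.23%, against 14% of all genes), and among genes above that level in at least 1 group the shares without overlap were 29.4% and 20.2%. The median log2 fold change was 0.0069 for the chaperones and -0.066 for all genes, and 38 of 71 lay above 0 (53.5%, against 40.3% of all genes). With quantile normalization 9 chaperone genes were higher and 7 lower, beside 1240 and 1329 of all genes. With cyclic loess 9 chaperone genes were higher and 4 lower, beside 1309 and 1154 of all genes. The balance of directions therefore depends on the scaling. With all 24 arrays and the animal as a random block 9 were higher and 13 lower. The greatest change among the 71, in Hspa1b, was 1.73-fold.

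**Figure D1:**
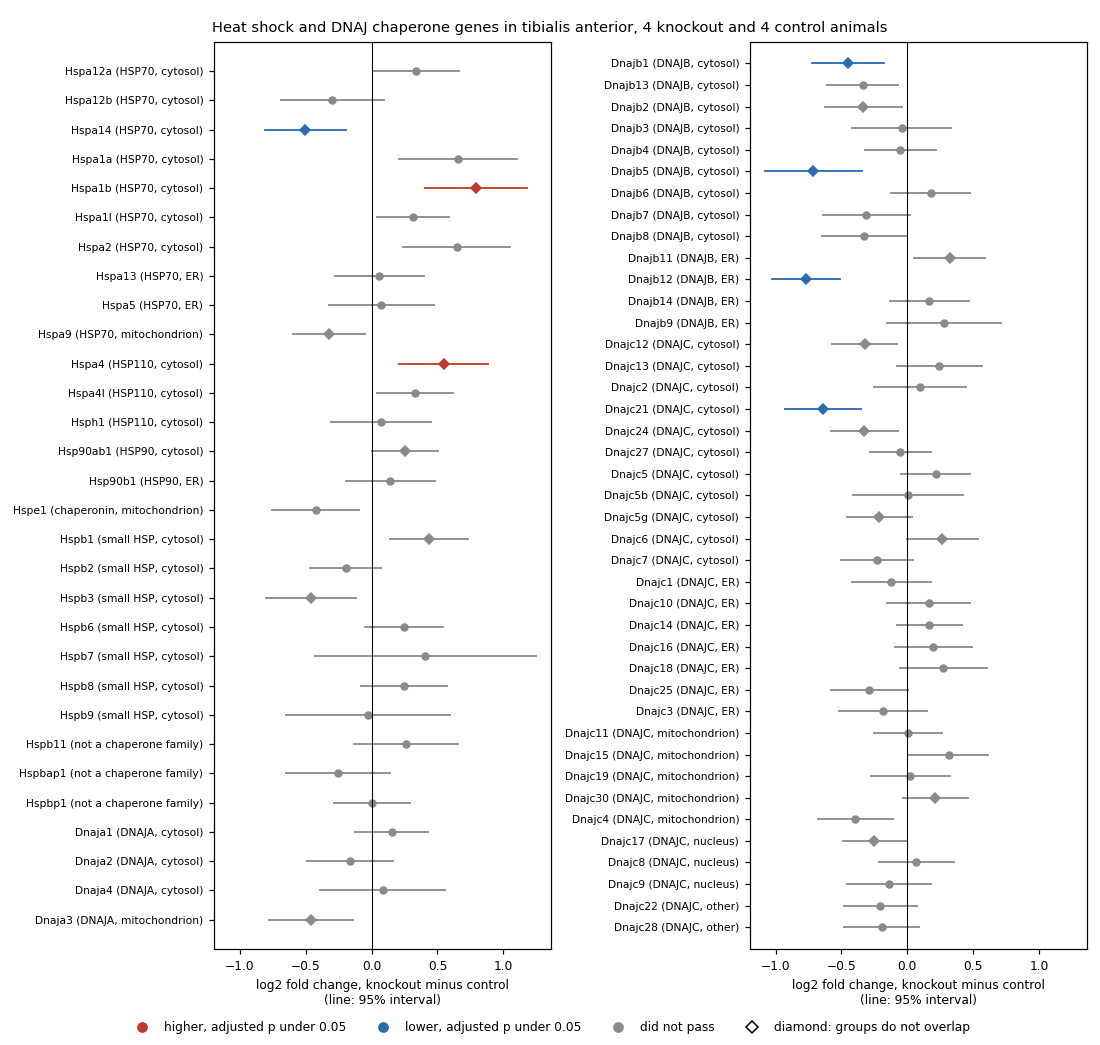
Log2 fold change (knockout minus control) of all 71 chaperone genes with the 95% interval of the fit, by family and place in the cell. Coloured points mark the 2 genes that were higher and the 5 that were lower at an adjusted p under 0.05, and diamonds mark the 20 genes whose groups do not overlap.

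The stress-inducible HSP70 gene Hspa1b rose in knockout muscle, and its near-identical neighbour Hspa1a lay in the same direction. Hspa1b had 2667, 3258, 2958 and 3936 in knockout animals, against 1696, 1514, 2521 and 1745 in control animals. All 4 knockout animals lay above all 4 control animals, though control animal 3 came close to knockout animal 1. The rise was 1.73-fold (log2 fold change 0.79 ± 0.18, SE; adjusted p = 0.0181), with log2 means of 11.63 ± 0.24 in knockout and 10.84 ± 0.32 in control muscle (SD, n = 4 each). Without control animal 1 the change was 0.75 and the call was lost (adjusted p = 0.0598); it held without each of the other animals and under all 11 other alternatives. Hspa1a had 1229.8, 1141, 1138 and 1752 in knockout animals, against 778, 716, 1208 and 669.8 in control animals. Here control animal 3 lay within the knockout range, and the gene did not pass (log2 fold change 0.66 ± 0.20, SE; adjusted p = 0.0682). Without control animal 3 it passed, at 0.85 (adjusted p = 0.0184). Hspa1a also passed in 3 of 11 other settings: a variance trend with robust variances and both fits with the animal as a random block. The encoded proteins are almost the same and the probe sequences are not used here, so signal of the pair cannot be assigned to 1 copy with certainty.

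The promoters of the pair show how alike they are. Both are printed below as the 250 bases before the start of the gene, from the RefSeq table of GRCm38.p6. Capitals mark the letters of a heat shock element of 2 units, GAANNTTC or TTCNNGAA, found on either strand. In these 250 bases the pair is identical at 247 positions and differs at 3.
Hspa1b, chr17:34959239-34959488 (- strand): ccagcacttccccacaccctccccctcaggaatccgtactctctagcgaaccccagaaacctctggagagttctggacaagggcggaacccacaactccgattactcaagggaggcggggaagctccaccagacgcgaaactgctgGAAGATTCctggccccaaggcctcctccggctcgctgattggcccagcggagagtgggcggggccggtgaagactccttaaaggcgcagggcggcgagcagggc
Hspa1a, chr17:34972157-34972406 (- strand): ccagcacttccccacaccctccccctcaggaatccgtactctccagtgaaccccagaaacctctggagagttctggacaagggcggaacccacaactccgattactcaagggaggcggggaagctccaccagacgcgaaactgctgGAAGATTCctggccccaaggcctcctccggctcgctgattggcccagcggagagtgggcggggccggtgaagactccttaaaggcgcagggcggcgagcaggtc

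Another HSP70 gene, Hspa1l, lies head to head with Hspa1a, and the 2 starts are 547 bases apart in that table. Hspa1l is known from testis, and it had 13545, 15047, 12772 and 14408 in knockout animals, against 12887, 12058, 10131 and 9946 in control animals. Knockout animals were the higher ones apart from knockout animal 3, which lay just under control animal 1, and the gene did not pass (log2 fold change 0.32 ± 0.12, SE; adjusted p = 0.149). It passed in 4 of 11 other settings, quantile normalization (adjusted p = 0.0185) and cyclic loess (0.0192) among them. Hspa2, an HSP70 abundant in germ cells and present in muscle, had 4559.5, 5473, 5782 and 7657 in knockout animals, against 4619, 4068, 2892 and 3392 in control animals. Only knockout animal 1 and control animal 1 were out of order, by a small amount, and the change of 0.65 ± 0.19 fell just short of the threshold (adjusted p = 0.0529). It passed in 7 of 11 other settings, quantile normalization (adjusted p = 0.026) and cyclic loess (0.0204) among them.

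The other cytosolic HSP70 relatives went in both directions. Hspa14, which sits on ribosomes and binds nascent chains, fell 1.42-fold (log2 fold change -0.50 ± 0.14, SE; adjusted p = 0.0459). Its intensities were 4084, 3799.7, 3411 and 4236 in knockout animals, against 5749, 6667, 4548 and 5189 in control animals, with no overlap between the groups. The call depended on single animals: it held only without control animal 3, and the adjusted p ran from 0.0327 to 0.136 over the 8 omissions of 1 animal. Dnajc2, the J protein that works with Hspa14 on the ribosome, was at 0.10 ± 0.16 (adjusted p = 0.752). Hspa12a, a distant relative, had a change of 0.34 ± 0.15 (adjusted p = 0.182). Hspa12b, a distant relative known from endothelial cells, had -0.30 ± 0.18 (adjusted p = 0.329). Beside it, all 12 endothelial markers lay below 0 and 3 passed as lower, with a summed intensity of 79383 to 110239.9 in knockout animals and 118826 to 150666 in control animals. Their part in the value of Hspa12b was not tested. In a bulk sample fewer cells of a type and less RNA per cell cannot be told apart.

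HSP110 proteins, which recharge HSP70 with ATP, were led by Hspa4. Its intensities were 9494, 12307, 7489.5 and 8409.8 in knockout animals, against 6211, 6423, 5799.6 and 6985 in control animals. Each knockout animal lay above each control animal, and knockout animal 2 was the highest. The rise was 1.46-fold (log2 fold change 0.55 ± 0.15, SE; adjusted p = 0.0497), only just within the threshold. This call too was fragile: it held only without knockout animal 3, and the adjusted p ran from 0.0388 to 0.114 over the 8 omissions of 1 animal. Hspa4l, its closest relative, had 2076, 1889, 1884 and 2051 in knockout animals, against 1940.3, 1497, 1324 and 1583 in control animals. Knockout animals 2 and 3 lay under control animal 1, and it did not pass (log2 fold change 0.33 ± 0.13, SE; adjusted p = 0.154). Hsph1, the heat-inducible HSP105, was at 0.073 ± 0.17 (95% interval -0.31 to 0.45) and did not pass, with 3802 to 5658 in knockout animals, against 3242 to 5386 in control animals.

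**Figure D2:**
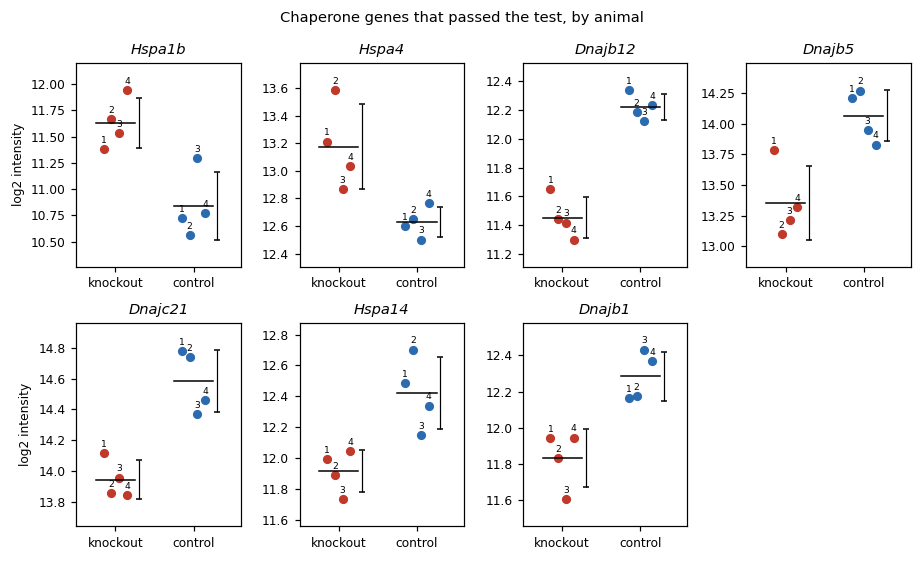
Log2 intensity of the 7 chaperone genes that passed the test, with 1 point per animal (numbered), the group mean as a bar and the SD as an error line (n = 4 each). Hspa1b and Hspa4 were higher in knockout muscle and the other 5 lower, with no overlap between the groups in any of the 7.

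Of the HSP90 genes, cytosolic Hsp90ab1, the constitutive form, had 123125, 131789, 123144 and 141094 in knockout animals, against 118016, 116108, 96215 and 106519 in control animals. All knockout animals were above all control animals by a small margin, and the change of 0.25 ± 0.11 did not pass (adjusted p = 0.209). It passed under quantile normalization (0.34; adjusted p = 0.0403) and cyclic loess (0.37; adjusted p = 0.025).

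Of 7 small heat shock protein genes 0 passed (limma; 2 had an unadjusted p under 0.05), and they ranged from -0.46 to 0.44 with a median of 0.24. Hspb1, the mouse HSP25 that binds actin filaments, had 19140.4, 26879.7, 19684 and 22696 in knockout animals, against 18067, 15709.5, 15464 and 15665 in control animals. The groups did not overlap, with control animal 1 close to knockout animal 1, and the change was 0.44 ± 0.13 (adjusted p = 0.0665). It passed under 6 of 11 other settings, among them quantile normalization (adjusted p = 0.0186), cyclic loess (0.0169) and a filter on dim rows (0.047). Hspb3, a muscle-restricted partner of Hspb2, lay in the opposite direction with 19065, 18004, 14296 and 18042 in knockout animals, against 22206, 30692, 19696 and 23639 in control animals. All knockout animals were below all control animals, and the change of -0.46 ± 0.15 did not pass (adjusted p = 0.0906). It passed in 3 of 11 other settings: quantile normalization (adjusted p = 0.0484) and both fits in which arrays entered singly and animals formed a random block (0.00768 and, with the hybridisation number as a further block, 0.0119). Hspb2 itself, which forms mixed oligomers with Hspb3, was at -0.20 ± 0.12 (adjusted p = 0.349).

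Hspb6, the HSP20 of muscle, had 374623, 465529.6, 369647 and 401137 in knockout animals, against 363388, 390257, 324818 and 283506 in control animals. The groups overlapped, and the change was 0.25 ± 0.13 (adjusted p = 0.289). It passed under quantile normalization (0.37; adjusted p = 0.0473) and cyclic loess (0.39; adjusted p = 0.0248). Hspb8, which works with BAG3 in the removal of damaged sarcomere proteins, was at 0.24 ± 0.15 (adjusted p = 0.337). Hspb9, known from testis, was at -0.03 ± 0.28 (adjusted p = 0.961). Hspb7, a small heat shock protein of heart and skeletal muscle, was singled out after its values were seen. It had 63709.8, 82946, 58792 and 57987 in knockout animals, against 84927, 88886, 33185 and 23260.3 in control animals. Control animals 1 and 2 lay at the top of all 8 animals and control animals 3 and 4 at the bottom, so the difference of 0.41 ± 0.38 carries a 95% interval of -0.43 to 1.25 (adjusted p = 0.548). Fibre-type genes moved beside this family: of 9 slow fibre genes 5 rose and 1 fell, with summed intensities of 88474 to 129922 in knockout animals and 57869 to 150509.9 in control animals. Their part in the values of the small heat shock proteins was not tested.

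**Figure D3:**
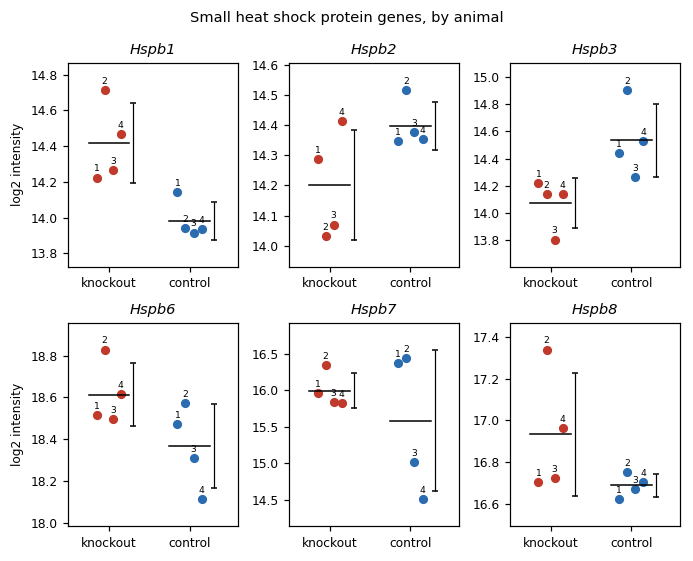
Log2 intensity of 6 small heat shock protein genes by animal (numbered points), with group means as bars and the SD as an error line (n = 4 each). Hspb1 and Hspb3 separate the groups in opposite directions, while the control animals of Hspb7 fall at both ends of the range.

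The heat shock element letters also stand in the promoters of Hspb1 and of Hspe1, the mitochondrial HSP10. The stretch below, from the same RefSeq table, holds 2 matches in capitals, and the stretch of Hspe1 holds overlapping units that form the longer 3-unit element, in which GAA and TTC alternate with 2 bases of any kind between them.
Hspb1, chr5:135887787-135887844 (+ strand): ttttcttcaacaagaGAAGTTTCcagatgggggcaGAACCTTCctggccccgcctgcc
Hspe1, chr1:55088044-55088091 (+ strand): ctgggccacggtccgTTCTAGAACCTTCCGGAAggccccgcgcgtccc

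Promoters in the table run from 250 bases before to 50 after a start, and 59 of the 71 chaperone genes had 1. The 2-unit element was found in 15 of these 59 genes (25.4%), against 17% of all 27025 genes in the table. The 3-unit letters were found in 3 of 59 (Dnajb6, Hspe1 and Hsph1) and in 0.662% of all genes. Of the 7 genes that passed the test, a match was found for Hspa1b, of the 2-unit form only. Any of the 7 without a promoter in the table could not be searched. No match says only that these letters are not in that window.

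Of 8 mitochondrial chaperone genes 0 passed (limma; 5 had an unadjusted p under 0.05, against 24% of all genes). Among them 4 lay above and 4 below 0, where 40.3% of all genes lay above 0. Hspe1, the HSP10 lid of the chaperonin, had 6954, 5412, 5173 and 5970.1 in knockout animals, against 7122, 10059, 6878 and 7656 in control animals. Knockout animal 1 reached into the control range and the change of -0.42 ± 0.15 did not pass (adjusted p = 0.108). It passed in 2 of 11 other settings, both of them the less strict fits with the animal as a random block. Hspa9, the mortalin that pulls proteins into the matrix, had 68871, 67607, 66817 and 70465 in knockout animals, against 98208, 95708, 76011 and 75498 in control animals. It did not overlap between the groups but did not pass (log2 fold change -0.32 ± 0.12, SE; adjusted p = 0.134). Hspa9 passed in 1 of 11 other settings, the less strict fit with the animal as a random block and no replicate block. Its J-protein partner Dnaja3 had 24074, 20341, 22973 and 25204 in knockout animals, against 38889.7, 35123, 26739 and 27705 in control animals, again with every knockout animal below every control animal (log2 fold change -0.46 ± 0.15, SE; adjusted p = 0.0752). Dnaja3 passed in 4 of 11 other settings: the mean over its rows, a variance trend with robust variances, and both fits with the animal as a random block. The remaining rows of Dnaja3 gave -0.47 and -0.58, and each of these passed when all rows were tested (adjusted p = 0.0362 and 0.0365), so its 3 rows lay in 1 direction.

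Of the 5 mitochondrial DNAJC genes 4 lay above 0. Dnajc15, which binds the motor at the inner membrane, had 83791, 94419.5, 70745 and 78578 in knockout animals, against 64311, 77667, 56017 and 65459 in control animals. Only control animal 2 and knockout animal 3 were out of order (log2 fold change 0.32 ± 0.14, SE; adjusted p = 0.185), and it passed under quantile normalization (0.44; adjusted p = 0.0094) and cyclic loess (0.42; adjusted p = 0.0136). Dnajc30, an inner membrane protein, did not overlap between groups, at 12979 to 15689 in knockout animals, against 11579 to 12817 in control animals (log2 fold change 0.21 ± 0.11, SE; adjusted p = 0.271). Dnajc19, the other motor J protein, was at 0.024 ± 0.14, and Dnajc11, of the contact sites between the membranes, at 0.0024 ± 0.12 (adjusted p = 0.938 and 0.993). Dnajc4 was at -0.39 ± 0.13 (adjusted p = 0.0844).

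Of 12 cytosolic DNAJA and DNAJB genes 9 lay below 0, with a median of -0.24, and 2 of them passed. Over all genes 10588 of 17742 lay below 0, and the 9 include the faint Dnajb3, Dnajb7, Dnajb8 and Dnajb13. Dnajb5, a J protein that binds HSC70, fell 1.64-fold. Its intensities were 14103, 8758, 9518 and 10218 in knockout animals, against 18997, 19806, 15844 and 14572 in control animals. The highest knockout animal, number 1, lay just below the lowest control animal, number 4 (log2 fold change -0.71 ± 0.17, SE; adjusted p = 0.0223). The call was lost without control animal 1 (adjusted p = 0.0693) or knockout animals 2 (0.0593), 3 (0.0662) or 4 (0.0519). Dnajb1, the stress-inducible HSP40 that partners Hspa1b, fell 1.37-fold with 3945, 3649, 3119 and 3948 in knockout animals, against 4598, 4624, 5526 and 5295 in control animals. The groups did not overlap (log2 fold change -0.45 ± 0.12, SE; adjusted p = 0.0441), but it held only without control animal 2, and the adjusted p ran from 0.0459 to 0.138 over the 8 omissions of 1 animal. The call was also lost under quantile normalization (adjusted p = 0.0662) and cyclic loess (0.0725). The inducible HSP70 gene Hspa1b and its inducible J partner Dnajb1 had opposite signs.

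Dnajb2, which binds ubiquitin chains, had 12807, 11025, 12498 and 12667 in knockout animals, against 17815, 17361, 12900.0 and 14173 in control animals, without overlap and without passing (log2 fold change -0.33 ± 0.13, SE; adjusted p = 0.151). Its other, dimmer row gave -0.15 and overlapped, with 494 to 540 in knockout animals, against 530 to 615 in control animals. Dnajb2 passed in 1 of 11 other settings, the less strict fit with the animal as a random block and no replicate block. Dnajb6, the Z-disc J protein whose human mutations cause a limb-girdle muscular dystrophy, was at 0.18 ± 0.14 (adjusted p = 0.459), and Dnajb4, whose human mutations cause a myopathy, at -0.054 ± 0.12 (adjusted p = 0.823). Dnaja1 and Dnaja2, the general partners of HSC70, were at 0.15 ± 0.13 and -0.17 ± 0.15 (adjusted p = 0.491 and 0.524). The other row of Dnaja1 gave -0.27, of opposite sign, and that of Dnaja2 -0.12. The inducible Dnaja4 was at 0.083 ± 0.21 (adjusted p = 0.846), with 17319.7, 20623, 18984 and 19386 in knockout animals, against 27133, 20629, 15524 and 12018 in control animals, where the control animals spread the more widely. Dnajb3, Dnajb8 and Dnajb13, which are known from testis or cilia, were at -0.044, -0.33 and -0.34, and the dim Dnajb7 at -0.31, with no call.

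Of 14 chaperone genes of the ER, Dnajb12 fell and the other 13 did not pass. Dnajb12 is an ER membrane protein that recruits HSC70 to misfolded membrane proteins. Its intensities were 3212, 2787, 2735 and 2519.6 in knockout animals, against 5187, 4662, 4465 and 4830.0 in control animals. The 2 groups were well apart, with a gap between the highest knockout and the lowest control animal that exceeded the range within either group. The fall was 1.71-fold (log2 fold change -0.77 ± 0.12, SE; adjusted p = 0.00232), with log2 means of 11.45 ± 0.15 in knockout and 12.22 ± 0.09 in control muscle (SD, n = 4 each). It passed in all 11 other settings and without each of the 8 animals, where it ran from -0.84 to -0.72. Dnajb14, its closest relative in the ER membrane, was at 0.17 ± 0.14 (adjusted p = 0.48).

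In the ER lumen, Hspa5 (BiP) had 30991, 38418, 26989 and 21633 in knockout animals, against 26889, 33066, 28253 and 22532 in control animals. The groups lay over each other (log2 fold change 0.074 ± 0.18, SE; adjusted p = 0.836; 95% interval -0.32 to 0.47). Hsp90b1 (GRP94) was at 0.14 ± 0.15 with a 95% interval of -0.19 to 0.48 (adjusted p = 0.601). Dnajb11, the ERdj3 that feeds BiP, had 7508, 9318, 7548 and 7088 in knockout animals, against 6722, 6573, 5907 and 5885 in control animals, without overlap (log2 fold change 0.32 ± 0.12, SE; adjusted p = 0.132). It passed under quantile normalization (0.35; adjusted p = 0.0254) and cyclic loess (0.37; adjusted p = 0.0275), while its other rows gave 0.024 and 0.17. Dnajb9, the ERdj4 that shuts off the sensor IRE1, was at 0.28 ± 0.20, and Dnajc3, the P58IPK of the lumen, at -0.18 ± 0.15 (adjusted p = 0.409 and 0.493). Dnajc18 of the ER membrane was at 0.27 ± 0.15 (adjusted p = 0.296). Hspa13, Dnajc10, Dnajc14 and Dnajc16 ranged from 0.059 to 0.20, Dnajc1 was at -0.12 and Dnajc25 at -0.29, and none of the 6 passed. In all, 10 of 14 ER chaperone genes lay above 0, with a median of 0.15.

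The ER stress element, the site by which the unfolded protein response reaches these genes, was searched on both strands as CCAAT, then 9 bases of any kind, then CCACG. Its letters were found in the windows of 3 chaperone genes and of 0.137% of all genes. They are shown, with the matches in capitals, as the ER chaperone genes that hold the site, and none of the 3 passed the test.
Hspa5, chr2:34772010-34772058 (+ strand): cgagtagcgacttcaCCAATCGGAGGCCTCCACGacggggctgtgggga
Hsp90b1, chr10:86705518-86705671 (- strand): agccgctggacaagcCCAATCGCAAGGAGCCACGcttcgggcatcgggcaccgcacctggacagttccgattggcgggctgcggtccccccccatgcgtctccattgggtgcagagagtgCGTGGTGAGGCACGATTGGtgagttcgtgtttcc
Dnajc3, chr14:118937812-118937860 (+ strand): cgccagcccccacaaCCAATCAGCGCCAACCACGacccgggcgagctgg

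**Figure D4:**
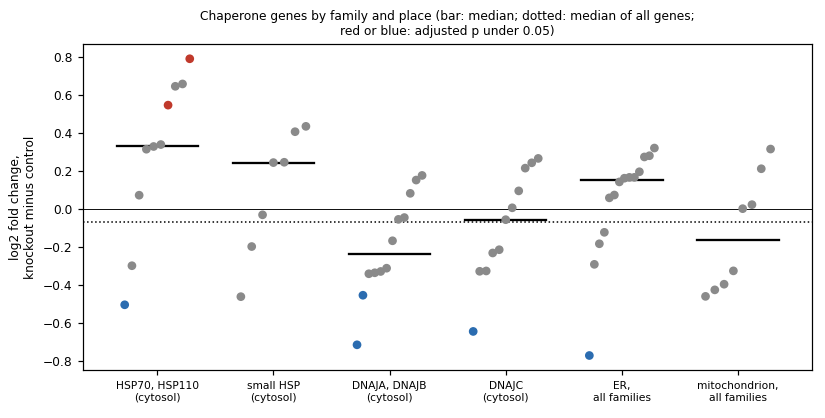
Log2 fold change (knockout minus control) of chaperone genes by family and place, with 1 point per gene, the median as a bar and the median of all genes (-0.066) as a dotted line. Medians were 0.33 for cytosolic HSP70 and HSP110, 0.24 for small heat shock proteins, -0.24 for cytosolic DNAJA and DNAJB, -0.056 for cytosolic DNAJC, 0.15 for the ER and -0.16 for mitochondria.

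The DNAJC class, which shares little beyond the J domain, held 1 call among 28 genes. Dnajc21, whose yeast counterpart acts in the maturation of ribosomal subunits, fell 1.56-fold with 17739, 14825, 15902 and 14685 in knockout animals, against 28087, 27325, 21148 and 22515 in control animals. Every knockout animal lay below every control animal (log2 fold change -0.64 ± 0.13, SE; adjusted p = 0.0118), and log2 means were 13.94 ± 0.13 in knockout and 14.59 ± 0.20 in control muscle (SD, n = 4 each). A second row for it gave -0.75, and the call held without each of the 8 animals (-0.72 to -0.58). Only without control animals 2 and 3 together was it lost, at -0.68 (adjusted p = 0.0507).

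Dnajc12, a J protein best known as the partner of aromatic amino acid hydroxylases, had rows of unequal size. Its brighter row had 14026, 12992, 12099.7 and 13379 in knockout animals, against 16766, 18102, 15071 and 15891 in control animals and did not pass (log2 fold change -0.33 ± 0.11, SE; adjusted p = 0.0944). The dimmer row gave -0.95 and passed when all rows were tested (adjusted p = 0.00251). Dnajc12 passed in 4 of 11 other settings: quantile normalization, the mean over its rows and both fits with the animal as a random block. Both rows were lower in knockout muscle, and the transcripts that each row detects are unknown here. Dnajc24, an enzyme partner in diphthamide synthesis, had 1452 to 1734 in knockout animals, against 1748 to 2156 in control animals (log2 fold change -0.33 ± 0.11, SE; adjusted p = 0.104). Dnajc6, the auxilin that uncoats clathrin vesicles, had 796 to 1053 in knockout animals, against 683 to 782 in control animals (log2 fold change 0.27 ± 0.12, SE; adjusted p = 0.215). Dnajc24 and Dnajc6 each passed in 2 of 11 other settings, both of them the less strict fits with the animal as a random block. Dnajc17, of the spliceosome, was at -0.25 ± 0.11 and Dnajc5g, a cysteine string protein of testis, at -0.21 ± 0.11, both without overlap (adjusted p = 0.191 and 0.274).

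The remaining DNAJC genes, those not assigned here to the mitochondrion or the ER, overlapped between the groups and did not pass. Dnajc5, the cysteine string protein of synaptic vesicles, was at 0.22 ± 0.12, and Dnajc13, an endosome protein, at 0.24 ± 0.15, although its other row gave -0.30. Dnajc7, which holds clients between HSP70 and HSP90, was at -0.23 ± 0.12 (adjusted p = 0.285). Dnajc8 of the spliceosome was at 0.067 ± 0.13 and Dnajc28, which was not assigned a place, at -0.19 ± 0.13. Dnajc9, a J protein that also chaperones histones H3 and H4, was at -0.14 ± 0.14 (adjusted p = 0.59), with a 95% interval of -0.46 to 0.18. A second, much dimmer row of Dnajc9 gave 0.24. Dnajc22 was at -0.20, Dnajc27 at -0.056 and the dim Dnajc5b at 0.0069. The 3 genes that match by name only, Hspb11, Hspbp1 and Hspbap1, were at 0.26, 0.0023 and -0.26, with no call. Across the 28 genes 14 lay above and 14 below 0, from -0.64 to 0.32.

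**Figure D5:**
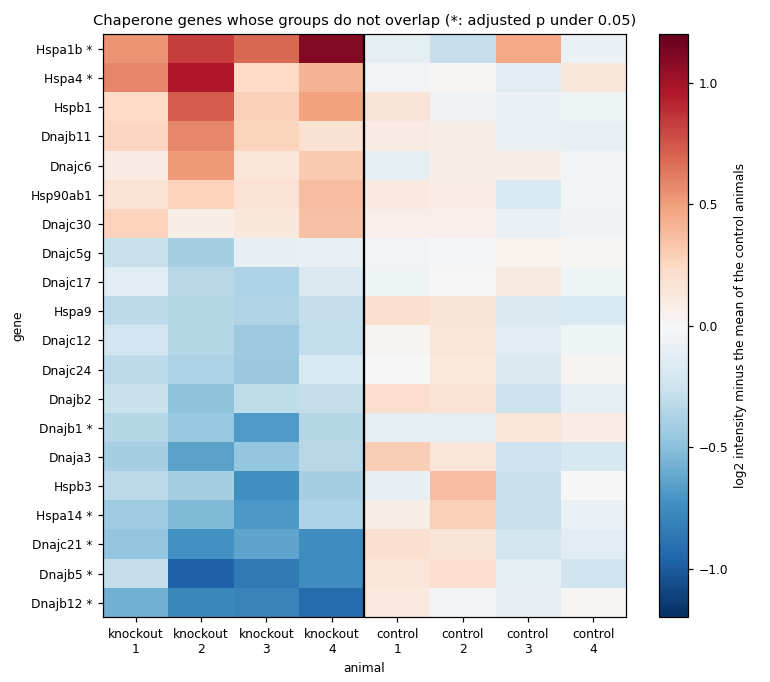
Log2 intensity minus the mean of the control animals for the 20 chaperone genes whose groups do not overlap, by animal. The upper 7 genes were higher and the lower 13 lower in all 4 knockout animals, and asterisks mark the 7 that passed the test.

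Other genes of protein folding gave few calls. Of 4 heat shock factor genes 1 passed: Hsf4, a factor known from the lens that is made in muscle too, fell 1.55-fold with 771, 668, 609 and 664 in knockout animals, against 1150.2, 1111, 1000.2 and 941 in control animals (log2 fold change -0.63 ± 0.12, SE; adjusted p = 0.00847). All 4 of that list lay below 0. Of 11 exchange factors and BAG proteins 1 passed, Bag2, an inhibitor of the ubiquitin ligase CHIP, which fell 1.36-fold (log2 fold change -0.45 ± 0.12, SE; adjusted p = 0.0402). For Bag2 it held only without control animal 3, and the adjusted p ran from 0.0454 to 0.116 over the 8 omissions of 1 animal. Of 16 HSP90 co-chaperones 0 passed, at a smallest adjusted p of 0.105 for Sugt1 (limma, log2 fold change -0.42 ± 0.15), and 3 had an unadjusted p under 0.05. Of 14 subunits of the TRiC chaperonin and prefoldin 0 passed either, 1 had an unadjusted p under 0.05, and Cct3 was at -0.30 ± 0.12 (adjusted p = 0.163). In the 11 other settings Sugt1 passed in 4 and Cct3 in 1.

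Of 24 genes of ER folding and the unfolded protein response 2 rose and 1 fell. Pdia6, a disulphide isomerase, rose 1.44-fold with 1939, 2026, 1804 and 2123 in knockout animals, against 1589, 1476, 1159 and 1285 in control animals (log2 fold change 0.53 ± 0.13, SE; adjusted p = 0.0268). Ddit3, the factor CHOP, rose 1.42-fold (log2 fold change 0.51 ± 0.14, SE; adjusted p = 0.0428), and Sec61b, a subunit of the translocon, fell 1.49-fold (log2 fold change -0.58 ± 0.15, SE; adjusted p = 0.0359). For Pdia6 it held only without knockout animal 3, control animal 1 or control animal 2, and the adjusted p ran from 0.0279 to 0.0718 over the 8 omissions of 1 animal. For Ddit3 it held only without control animal 1, and the adjusted p ran from 0.0236 to 0.111 over the 8 omissions of 1 animal. For Sec61b it held only without knockout animal 1, and the adjusted p ran from 0.0242 to 0.107 over the 8 omissions of 1 animal. Of 14 mitochondrial chaperones and proteases 1 passed, the inner membrane protease Oma1, which fell 1.41-fold (log2 fold change -0.50 ± 0.13, SE; adjusted p = 0.0339). For Oma1 it held only without knockout animal 4 or control animal 3, and the adjusted p ran from 0.0439 to 0.092 over the 8 omissions of 1 animal. Of 2 measured genes in the list of crystallins and other heat shock targets 0 passed (0 at an unadjusted p under 0.05), with Hmox1 at -0.19 ± 0.12 (adjusted p = 0.383).

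Of 22 genes listed as handling and stress-responsive 1 rose and 4 fell, where 9.28% of all genes passed. The list was chosen with earlier results of these data known. Its calls and the place of control animals 2 and 3 in it are therefore no independent result. Those that fell were Tsc22d3 (-1.04 ± 0.18), Arrdc2 (-2.49 ± 0.54), Nfkbia (-1.11 ± 0.26) and Gadd45g (-1.99 ± 0.49), with adjusted p-values of 0.00534, 0.016, 0.0213 and 0.029 in turn. In Tsc22d3, Arrdc2, Nfkbia and Gadd45g alike, control animals 2 and 3 were the highest of all 8. Without both of them Arrdc2 was at -1.33, Nfkbia at -0.60, Gadd45g at -1.01 and Tsc22d3 at -0.80, and of these 4 genes Arrdc2 passed (adjusted p = 0.0368). Leaving out a single animal ended the call of Arrdc2 for knockout animal 2 (adjusted p = 0.0548). It ended that of Nfkbia for knockout animals 1 (0.0559) and 3 (0.058) and control animal 3 (0.0617). It ended that of Gadd45g for knockout animals 1 (0.067), 2 (0.0854) and 3 (0.0573) and control animal 3 (0.0789). The summed intensity of the 22 genes was 182857 to 224929 in knockout animals and 187171 to 378757 in control animals. Without control animals 2 and 3, Hspa1b was at 0.88 (adjusted p = 0.0283) and Dnajb12 at -0.84 (adjusted p = 0.0194), and both passed. The other 5 called chaperone genes did not pass in that smaller set, in which 346 genes of all were higher and 295 lower.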

How the data were processed

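RNA of tibialis anterior from 4 knockout and 4 control animals was measured on 24 arrays, 3 per animal. The deposited values are probe intensities on a linear scale, already scaled by the authors to a median of 626.43 on each array; the method of scaling is not stated in the labels. Values under 38.8, the 5th percentile of all values, were set to it, log2 was taken, and each animal was given the mean of its hybridisations, so n counts animals. Of 26423 rows 20377 had a gene symbol, and the row with the highest mean stood for each of 17742 genes. The groups were compared with the moderated linear model of limma (version 3.58.1, R version 4.3.3), with Benjamini-Hochberg adjustment over all genes and a threshold of 0.05. The procedure was tested on simulated data.

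The members and the gene lists were chosen with earlier results of these data known. Named were genes that passed, genes without overlap, the largest changes, the brightest gene of each family and place, and the leading genes of each list; other members are given by role. Sequences came from the RefSeq table of GRCm38.p6. Alternatives changed the scaling, floor, filter, choice of rows, variance model and blocks, and left out animals. Hybridisations carry the numbers 1 to 3 within each animal, and animals are not paired across groups.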

Additional observations from a re-analysis of the deposited data

Results flagged for a closer look

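Among the 48 named genes, 96 groups of 4 animals were searched for an animal far from the rest, and 4 were found. Chance alone marks about 1 in 20 such groups. Knockout animal 2 stood apart in 3 of the 4. Its log2 intensity was 14.18 for Dnajc8, against 13.75 to 13.78 in the other knockout animals, and 14.15 for Hsp90b1, against 13.78 to 13.81. For Dnajb2 it was lower, at 13.43 against 13.61 to 13.64. Control animal 1 had 14.14 for Hspb1, against 13.92 to 13.94 in the other control animals.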

How the results depend on the processing

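Counts of chaperone genes called were small and moved with most settings, from 2 higher and 5 lower. Higher calls numbered 9 with quantile normalization, 9 with cyclic loess, 4 with a filter on dim rows, 1 with every row as a feature, 5 with a variance trend and robust variances, and 1 without control animals 2 and 3. Lower calls numbered 7, 4, 5, 5, 6 and 1 in the same order. With every row as a feature the lower genes were Dnaja3, Dnajb5, Dnajb12, Dnajc12 and Dnajc21. In that setting Hspa4, Hspa14 and Dnajb1 lost their calls (limma, adjusted p = 0.0627, 0.0586 and 0.0576). With all 24 arrays and the animal as a random block there were 9 higher and 13 lower, and with the hybridisation number as a replicate block added, 8 and 11. The numbers 1 to 3 name hybridisations of an animal, so this block pairs no animals. Both fits take arrays as the observations and are less strict than the fit on animal means. Over all genes (759 higher, 888 lower) the counts were 1240 higher and 1329 lower with quantile normalization, and 1309 and 1154 with cyclic loess. They were 1334 and 1815 with the random block, 1293 and 1685 with the replicate block, and 346 and 295 without control animals 2 and 3. Leaving out 1 animal gave 0 to 2 higher and 2 to 4 lower chaperone calls, and 522 to 727 higher and 418 to 966 lower calls over all genes; Hira ran from -0.31 to -0.047. Dnajb12 passed under every alternative run. Of the 48 named genes, 3 turned sign: Hspbp1 (without 1 animal it ran from -0.084 to 0.083; -0.043 without knockout animal 1, -0.012 without knockout animal 4, -0.084 without control animal 3, -0.018 without control animal 4 and -0.0067 without control animals 2 and 3), Dnajc8 (-0.038 without knockout animal 2, and up to 0.11 without others) and Hspa5 (-0.063 without knockout animal 2, -0.020 without control animal 4, and up to 0.21 without others). The causes were not tested. With 4 animals a group, a change missing the threshold is not shown to be absent.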

Other observations

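The numbers in the sample titles fall into a lower and a higher series, with animals 1 and 2 of each group in one and animals 3 and 4 in the other. This split was examined after the values were seen, and it is described without a test. In knockout muscle the median difference of animals 1 and 2 minus animals 3 and 4 over the 71 chaperone genes was 0.076 on the log2 scale, with 44 genes above 0 (62%, against 53.5% of all genes). In control muscle it was 0.17, with 50 genes above 0 (70.4%, against 49.4% of all genes). Hspb7, a small heat shock protein of striated muscle, differed by 0.32 in knockout and 1.64 in control muscle. Dnaja4 differed by -0.022 in knockout and 0.79 in control muscle and Dnajb9, an ER J protein, by 0.091 in knockout and 0.71 in control muscle. With the series as a block the chaperone calls numbered 2 higher and 5 lower, as without it.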
